A study of Mus musculus with 40 samples.

Results

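The genes described here are 9 genes of the cellular phosphate and adenylate economy: Ckb, Slc6a8, Gamt, Ak1, Ak3, Ak4, Slc25a5, Prkaa1 and Prkag2. They were taken by symbol from a table of 43430 genes, all 9 had a row, and all 9 were among the 11853 genes with enough counts to be tested. Their transcripts were measured by RNA-seq in BMDMs, macrophages derived from bone marrow by culture with M-CSF, of 5 wild-type (WT) and 5 NDI1 mice of the strain labelled C57/Bl6. Marrow of each mouse gave 4 libraries, one left untreated (U), one with 100 ng/ml LPS for 4 h (L), one with 500 nM piericidin A (P), and one with piericidin A given 30 min ahead of the same LPS (PL). This makes 40 libraries in 8 groups of 5.

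The genotype of the NDI1 group is labelled VAV-Cre NDI1 and that of the WT group VAV-Cre WT, so that Vav-driven Cre, which is active in the hematopoietic lineage, was present in both. NDI1 is a NADH dehydrogenase of yeast, carried as a Cre-dependent transgene at Rosa26. It oxidizes mitochondrial NADH and is not blocked by piericidin A, which inhibits complex I of the respiratory chain. The study as a whole used young adult mice of both sexes with littermate controls, and the labels do not give the sex or litter of these mice. All cells were grown in medium with methyl pyruvate and uridine. The time for which piericidin A alone was left on the cells is given only through the shared protocol.

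Cells move the energy of ATP from mitochondria to the sites where it is used along several routes. Creatine enters through the plasma membrane transporter SLC6A8 or is made by GATM and GAMT, and creatine kinases such as cytosolic CKB shuttle phosphate between ATP and creatine. Adenylate kinases exchange phosphate among AMP, ADP and ATP (or GTP), AK1 in the cytosol and AK3 and AK4 in the mitochondrial matrix. SLC25A5 (ANT2) exchanges ADP for ATP across the inner mitochondrial membrane. AMP-activated protein kinase (AMPK) senses the balance of these nucleotides as a complex of a catalytic alpha, a scaffold beta and a nucleotide-binding gamma subunit. PRKAA1 is its alpha-1 and PRKAG2 its gamma-2 subunit. In macrophages LPS is known to shift ATP production toward glycolysis.

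Library totals were between 6950748 and 13552070 counts (median 10361773.5). All 8 macrophage markers were detected in every library, with a summed level of 19700 to 38700 CPM (counts scaled to the size of the library). The summed level of 8 neutrophil and granulocyte precursor markers was 12.3 to 168 CPM in 32 libraries and 420 to 2650 CPM in the 8 libraries of WT mouse 496 and NDI1 mouse 503, which stood apart. Marker sums of other cell types set these mice apart too. The B cell sum was 2.23 to 13.3 CPM in these 8 libraries and at most 2.95 CPM in the others. The mast cell and basophil sum was 0.715 to 17.1 CPM against at most 1.15 CPM. The stromal sum was 34.8 to 114 CPM in mouse 496 and 11.4 to 28.8 CPM in mouse 503, against at most 24 CPM. In a bulk sample, fewer cells of a type and less RNA per cell cannot be told apart. Below, the 5 values of a group follow the order 449, 452, 453, 496 and 520 for WT mice and 447, 460, 461, 503 and 521 for NDI1 mice. All levels are CPM after TMM scaling, unless given per kb of mRNA. A gene is said to rise or fall where edgeR's quasi-likelihood test gave a Benjamini-Hochberg adjusted p under 0.05 over the 11853 genes. Overlap of groups and counts of mice moving one way are given as description, and their share over all genes was not computed.

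By the coordinates deposited with the counts (mm10), Ckb (ENSMUSG00000001270) lies at chr12:111669355-111672338 on the minus strand, Slc6a8 (ENSMUSG00000019558) at chrX:73673150-73682502 on the plus strand and Gamt (ENSMUSG00000020150) at chr10:80258151-80261012 on the minus strand. Of the adenylate kinases, Ak1 (ENSMUSG00000026817) lies at chr2:32621758-32635058 and Ak4 (ENSMUSG00000028527) at chr4:101419277-101466995, both on the plus strand, and Ak3 (ENSMUSG00000024782) at chr19:29020833-29047961 on the minus strand. Slc25a5 (ENSMUSG00000016319) lies at chrX:36795651-36798807 and Prkaa1 (ENSMUSG00000050697) at chr15:5143861-5181899, both on the plus strand, and Prkag2 (ENSMUSG00000028944) at chr5:24862744-25100642 on the minus strand. Counts were summed over the exons of each gene. Copies elsewhere with at least 97% identity over 75 bases held 0.137% of the counts of Ckb, 0.21% of those of Ak4 and 0.154% of those of Slc25a5.

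The promoter windows of the genes on which the results turn were read from RefSeq (GRCm38.p6, the same assembly as mm10). Of the 9 genes, 8 matched an entry, and Slc6a8 did not. The windows of 4 genes are shown, each running from upstream of the annotated start into the first bases of the transcript: Ak4 and Prkag2, which changed most with LPS, Prkaa1, which fell with piericidin A, and Ckb, whose window held a motif match. A lone capital marks the first transcribed base, and the run of 6 capitals in Ckb marks a match to the TATA core.
Ckb, chr12:111672289-111672588, minus strand: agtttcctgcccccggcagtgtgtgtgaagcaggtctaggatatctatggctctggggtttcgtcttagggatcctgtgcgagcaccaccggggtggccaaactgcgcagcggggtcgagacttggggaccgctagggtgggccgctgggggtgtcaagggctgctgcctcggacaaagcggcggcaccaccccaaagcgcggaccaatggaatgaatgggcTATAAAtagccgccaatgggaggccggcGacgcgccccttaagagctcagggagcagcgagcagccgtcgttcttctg
Ak4, chr4:101419039-101419338, plus strand: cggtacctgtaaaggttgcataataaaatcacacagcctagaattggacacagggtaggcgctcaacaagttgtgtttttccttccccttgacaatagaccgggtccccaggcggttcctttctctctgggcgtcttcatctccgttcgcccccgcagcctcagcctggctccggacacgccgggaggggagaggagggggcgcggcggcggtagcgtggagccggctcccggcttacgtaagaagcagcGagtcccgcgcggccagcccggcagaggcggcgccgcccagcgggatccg
Prkaa1, chr15:5143611-5143910, plus strand: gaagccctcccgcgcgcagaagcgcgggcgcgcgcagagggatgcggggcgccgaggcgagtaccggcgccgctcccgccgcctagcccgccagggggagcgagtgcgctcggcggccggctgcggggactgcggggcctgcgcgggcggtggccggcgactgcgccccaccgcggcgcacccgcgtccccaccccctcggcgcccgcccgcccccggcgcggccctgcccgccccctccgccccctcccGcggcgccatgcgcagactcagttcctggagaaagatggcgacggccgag
Prkag2, chr5:25100593-25100892, minus strand: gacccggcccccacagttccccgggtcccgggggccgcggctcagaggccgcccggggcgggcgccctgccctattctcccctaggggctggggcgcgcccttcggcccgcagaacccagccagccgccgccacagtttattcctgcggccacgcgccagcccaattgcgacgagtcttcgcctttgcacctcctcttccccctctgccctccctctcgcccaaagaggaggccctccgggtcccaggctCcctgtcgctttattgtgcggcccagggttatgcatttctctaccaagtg
A set of 7 motifs was searched on both strands: the hypoxia response element core ACGTG, the AP-1 site TGANTCA, the E-box CACGTG (which contains the hypoxia core), the CRE core TGACG, the C/EBP-ATF element TGATGNAA, the TATA core TATAAA and the NF-kB consensus. Among 32841 windows of this length, the first 4 were present in 19.6%, 7.81%, 7.15% and 20.8%, the C/EBP-ATF element in 3.97%, the TATA core in 13.6% and the NF-kB consensus in 8.46%. In the window nearest the deposited start of each of the 8 genes, the single match was the TATA core of Ckb, on the plus strand of the gene, 28 bases ahead of its start. The windows of the others hold none of these letters, which says nothing on which factors bind the genes. The GC content was 82% for Prkaa1, 69.7% for Prkag2, 64.3% for Ak4 and 63% for Ckb.

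In resting WT BMDMs the transcripts spanned a wide range of levels. Per kb of mRNA, Slc25a5 had the highest level (121 ± 17.8 CPM per kb, SD, n = 5), followed by Ckb (79 ± 18.1) and Slc6a8 (74.1 ± 15.7). The lowest Slc25a5 library and the highest Ckb library were both at 109 CPM per kb. The ranges of Ckb and Slc6a8 over mice overlapped, and the order of the pair is therefore not resolved. Prkaa1 (18.4 ± 1.99) and Ak3 (14.7 ± 3.6) followed and overlapped each other. Gamt (7.15 ± 0.417) and Prkag2 (5.67 ± 1.2) came next and also overlapped. Ak1 (1.31 ± 0.528) and Ak4 (0.581 ± 0.259) were the lowest, again with overlapping ranges. Resting NDI1 BMDMs gave the same order, from 117 ± 14.2 CPM per kb for Slc25a5 to 0.86 ± 0.67 for Ak4.

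**Figure D1:**
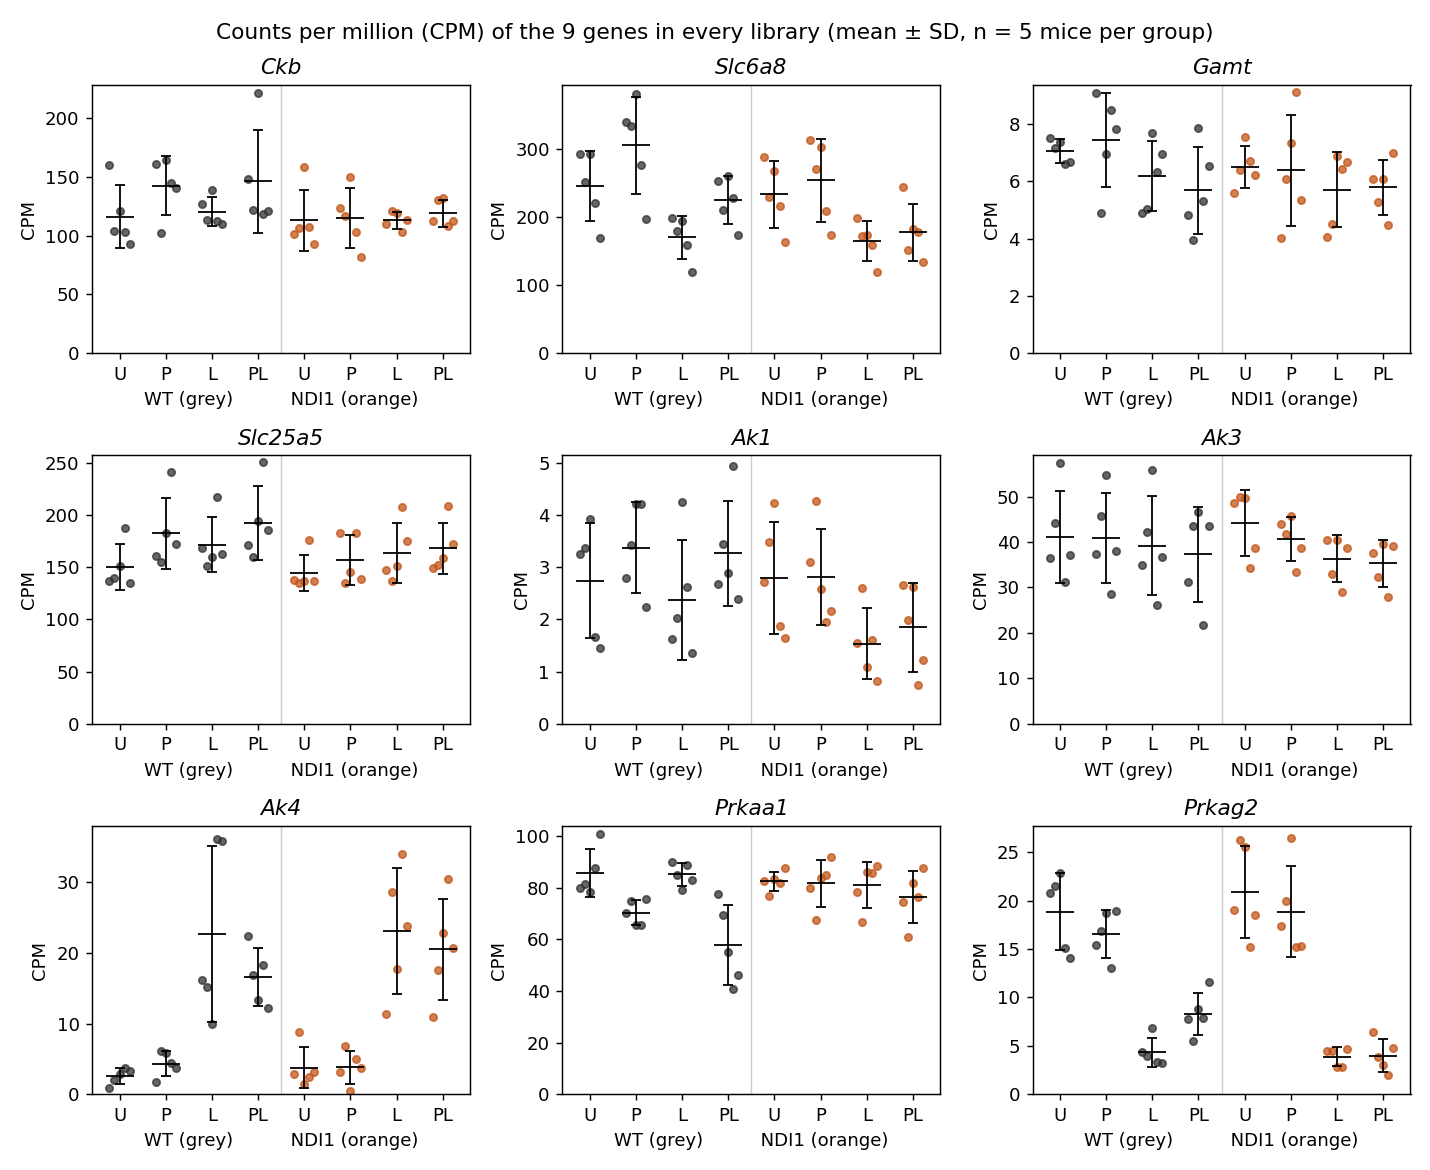
Levels of the 9 genes in the 40 libraries, in CPM (linear axes from 0), by genotype (grey WT, orange NDI1) and treatment, with a point for each mouse and the mean ± SD over 5 mice. Ak4 was at 0.815 to 3.66 CPM in resting WT BMDMs and at 9.93 to 36.2 CPM with LPS, and Prkag2 went from 14.1 to 22.9 CPM down to 3.18 to 6.81 CPM.

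With LPS, WT BMDMs raised Ak4 and lowered Prkag2 and Slc6a8, and NDI1 BMDMs did the same and also lowered Ak1. Thus 3 of the 9 genes passed the test in WT BMDMs, 1 higher and 2 lower, and 4 of 9 in NDI1 BMDMs, 1 higher and 3 lower. LPS moved 62.5% of all genes tested in WT (31.5% higher, 31% lower) and 62.7% in NDI1 (31.5% higher, 31.2% lower), so these counts lie below that background. Marker sums of other cell types were also higher with LPS: the 7 osteoclast markers, of which 2 were at 0 in resting WT, none in WT with LPS and 1 in each of these NDI1 groups, had a sum of 20.9 to 41.3 CPM at rest and 83.5 to 178 CPM with LPS in WT and 28.5 to 55.7 against 107 to 230 CPM in NDI1. The sum of 6 dendritic cell markers was 1.42 to 5.72 against 11 to 33.6 CPM in WT and 2.07 to 8.87 against 7.8 to 34.9 CPM in NDI1. That of 6 stromal markers was 1.78 to 34.8 against 5.35 to 74.9 CPM in WT and 0.905 to 11.4 against 5.93 to 28.8 CPM in NDI1. The granulocyte sum had a median of 45.6 against 69.8 CPM in WT and 56.8 against 84.5 CPM in NDI1. The macrophage sum was higher too, with a median of 23700 against 28600 CPM in WT and 24300 against 30100 CPM in NDI1. A sum does not tell which of its markers changed, or whether cells or RNA per cell did. The part of these markers in the changes of the 9 genes was not tested. The median absolute log2 fold change was 0.191 over the 9 genes and 0.638 over all genes in WT, and 0.287 against 0.635 in NDI1.

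Ak4, an adenylate kinase of the mitochondrial matrix, was the one gene of the group that LPS raised. Its level in resting WT BMDMs was 0.815, 2.05, 2.91, 3.66 and 3.24 CPM, and with LPS 16.2, 15.2, 9.93, 36.2 and 35.9 CPM. In NDI1 BMDMs it was 2.87, 8.83, 1.38, 2.51 and 3.15 CPM at rest and 11.3, 28.6, 17.8, 34 and 23.8 CPM with LPS. Every LPS library was above every resting library in both genotypes, and mice 496 and 520 had by far the highest LPS values in WT. The log2 fold change was 3.14 ± 0.48 (SE, adjusted p = 4.75e-07), or 8.83-fold, in WT and 2.60 ± 0.46 (adjusted p = 6.96e-06), or 6.08-fold, in NDI1. The rise within a mouse ranged from 1.71 to 4.03 on the log2 scale in WT.

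Prkag2, the gamma-2 subunit of AMPK, fell most. Resting WT BMDMs held 20.8, 21.5, 22.9, 15.1 and 14.1 CPM, and those given LPS 4.36, 3.95, 6.81, 3.29 and 3.18 CPM. The NDI1 values were 19, 26.3, 25.5, 15.2 and 18.5 CPM at rest and 4.5, 4.52, 2.84, 2.81 and 4.69 CPM with LPS. No LPS library reached a resting library of either genotype. The log2 fold change was −2.11 ± 0.24 (adjusted p = 1.15e-09) in WT and −2.42 ± 0.24 (adjusted p = 5.83e-11) in NDI1, which left 0.231 and 0.187 of the resting level. Antisense genes share exonic bases with Prkag2 (12.3% of them with Prkag2os2), but those genes held 19 and 11 counts over all 40 libraries.

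Slc6a8, the creatine transporter, fell by a smaller amount that was nearly the same in each mouse. WT BMDMs held 292, 252, 293, 221 and 170 CPM at rest and 199, 179, 194, 159 and 120 CPM with LPS. Those of NDI1 mice held 288, 230, 268, 217 and 163 CPM and then 199, 172, 173, 159 and 119 CPM. The groups overlapped, yet the level dropped in 5 of 5 WT and 5 of 5 NDI1 mice, by a log2 difference of −0.59 to −0.47 in WT and −0.64 to −0.42 in NDI1. The log2 fold change was −0.53 ± 0.19 (adjusted p = 0.0165) in WT and −0.51 ± 0.19 (adjusted p = 0.0209) in NDI1. The NDI1 value was −0.47 (adjusted p = 0.07) without mouse 461, and −0.51 (adjusted p = 0.0537) without mice 496 and 503.

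The other creatine genes passed no such test. Ckb, the cytosolic brain-type creatine kinase, had 160, 104, 121, 103 and 92.8 CPM in resting WT BMDMs and 127, 113, 139, 112 and 110 CPM with LPS (log2 fold change 0.05 ± 0.17, 95% confidence interval −0.28 to 0.37). Gamt, which methylates guanidinoacetate to creatine, was low, at 3.97 to 9.11 CPM over the 40 libraries, and differed by −0.19 ± 0.19 (−0.57 to 0.19). Ckb was in practice the only creatine kinase transcript: over the 40 libraries Ckm reached at most 0.223 CPM and Ckmt1 0.0968 CPM, and Ckmt2 had no count.

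Among the other adenylate kinases, Ak1 fell with LPS in NDI1 BMDMs from 2.72, 3.49, 4.22, 1.88 and 1.65 CPM to 1.54, 2.6, 1.08, 1.61 and 0.82 CPM, with overlapping groups. It was lower in 5 of 5 mice, and its log2 fold change was −0.86 ± 0.36 (adjusted p = 0.0363). In WT its log2 fold change was −0.19 ± 0.35 (adjusted p = 0.65), and the difference between the genotypes was −0.67 ± 0.50 (adjusted p = 1). With 5 to 60 counts of Ak1 per library, this call was lost without mouse 447, 461 or 521 (log2 fold change −0.87, −0.57 and −0.84, adjusted p = 0.0747, 0.232 and 0.0601), and with no filter on low counts (−0.88, adjusted p = 0.059). Ak3, the matrix GTP:AMP phosphotransferase, was at 36.4, 44.1, 57.3, 31.1 and 37.1 CPM in resting WT BMDMs and at 34.9, 42.3, 55.8, 26.2 and 36.8 CPM with LPS. It differed by −0.07 ± 0.19 in WT and −0.29 ± 0.19 in NDI1 (adjusted p = 0.763 and 0.185). Part of the exonic sequence of Ak3 (13.8%) is shared with Cdc37l1 on the opposite strand, and without knowledge of the strand used in counting the reads of this stretch cannot be told apart.

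Fitting each mouse as a block, which compares libraries of the same mouse, added small changes to these calls. Slc25a5 then rose by 0.19 in WT (adjusted p = 0.0154) and by 0.17 in NDI1 (adjusted p = 0.0303), where it had been higher in 5 of 5 mice of each genotype, and Ak3 fell by 0.29 in NDI1 (adjusted p = 0.00241). In that fit 4 of the 9 genes passed in WT and 6 of 9 in NDI1, against 72% and 72.4% of all genes. Slc25a5, the main ADP/ATP carrier transcript here, was at 137, 140, 151, 188 and 135 CPM in resting WT BMDMs and at 168, 151, 160, 217 and 163 CPM with LPS. Mouse 496, with the high granulocyte marker level, was the highest in both groups, and in the blocked fit without mice 496 and 503 the change was 0.19 (adjusted p = 0.047) in WT and 0.16 (adjusted p = 0.0968) in NDI1. The TMM factors were 1.25 to 1.371 in resting WT libraries and 0.696 to 0.876 with LPS. By library total alone Slc25a5 was lower with LPS in WT mouse 449, at 1682 of 8955095 counts and then 1231 of 10157670. The direction of small LPS changes, such as those of Slc25a5 and Ckb, thus depends on this scaling.

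The LPS response was also compared between the genotypes. None of the 9 genes differed in it, with 0% of all genes called by edgeR, 63 genes and none of the 9 at an unadjusted p under 0.05, and no gene called by DESeq2. For Prkag2 the difference of the log2 fold changes was −0.31 (95% confidence interval −0.97 to 0.35) and for Ak4 −0.54 (−1.80 to 0.72), and differences within these intervals are not excluded.

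**Figure D2:**
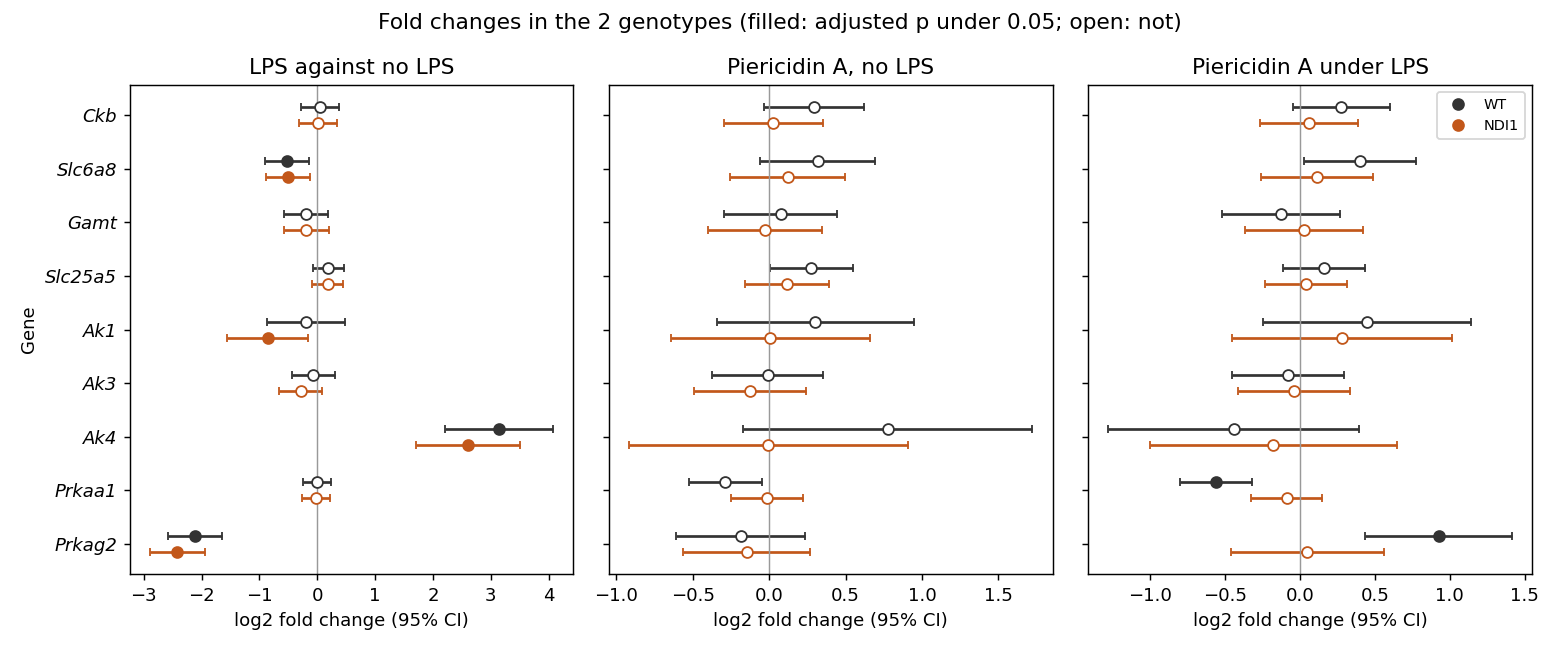
Log2 fold changes of the 9 genes with approximate 95% confidence intervals (x axis) for LPS, for piericidin A without LPS and for piericidin A under LPS, in WT (grey) and NDI1 (orange) BMDMs, n = 5 mice each. Filled points passed an adjusted p of 0.05. Under LPS, Prkaa1 (−0.56) and Prkag2 (0.93) are the filled WT points, and every NDI1 point of the piericidin A panels is open.

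Piericidin A alone gave no call among the 9 genes in resting WT BMDMs by edgeR without the block, while 14.8% of all genes were called. Prkaa1 had an unadjusted p under 0.05, and DESeq2 called none of the 9 either. With the mouse as a block 4 of the 9 genes passed, against 34.2% of all genes: Slc6a8 rose by 0.31 on the log2 scale (adjusted p = 0.00147), Ckb by 0.30 (adjusted p = 0.0353) and Slc25a5 by 0.27 (adjusted p = 0.00302), and Prkaa1 fell by 0.29 (adjusted p = 0.023). The blocked fit without mice 496 and 503 kept the calls of Slc6a8 (0.31, adjusted p = 0.00841) and Slc25a5 (0.25, adjusted p = 0.0349), and not those of Ckb (0.25, adjusted p = 0.188) and Prkaa1 (−0.26, adjusted p = 0.0796). The summed granulocyte marker level was 21.2 to 437 CPM (median 45.6) in resting WT BMDMs and 28.5 to 1460 CPM (median 65.2) with piericidin A, and its part was not tested.

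The values behind these blocked calls went the same way in most mice and are small. Slc6a8 with piericidin A was at 340, 334, 381, 277 and 197 CPM, above the resting level of the same mouse in 5 of 5 mice. Slc25a5 was at 161, 155, 183, 241 and 172 CPM, also higher in 5 of 5. Ckb was at 161, 102, 164, 145 and 140 CPM, higher in 4 of 5 mice and slightly lower in mouse 452.

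Prkaa1, the catalytic subunit of AMPK, was at 79.9, 81.4, 78.4, 87.7 and 101 CPM at rest and at 70.3, 74.8, 65.6, 65.5 and 75.7 CPM with piericidin A. It was lower in 5 of 5 mice and the groups did not overlap, a pattern whose share over all genes was not computed. The log2 difference without the block was −0.29 ± 0.12 (adjusted p = 0.107).

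In NDI1 BMDMs, none of the 9 genes was called for piericidin A without LPS, with 0% of all genes called by edgeR, 58 genes at an unadjusted p under 0.05 (none of the 9) and no gene called by DESeq2 or in the blocked fit. Prkaa1 differed by −0.01 (95% confidence interval −0.25 to 0.22), Slc6a8 by 0.12 (−0.25 to 0.49) and Ckb by 0.03 (−0.30 to 0.35). The test of the difference between the genotypes in this effect called 1.27% of all genes and none of the 9, and with the block 8.96% and again none of the 9. The resting effect of piericidin A on Slc6a8, Slc25a5, Ckb and Prkaa1 was thus not shown to differ between WT and NDI1.

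In LPS-treated WT BMDMs, piericidin A lowered Prkaa1 and raised Prkag2, that is, it moved the AMPK subunits of the group in opposite directions. These were 2 of the 9 genes, against 16.7% of all genes called. Prkaa1 was at 90, 84.9, 79.3, 88.8 and 83.1 CPM with LPS and at 77.7, 69.5, 55.1, 40.7 and 46.3 CPM with LPS and piericidin A. It dropped in 5 of 5 mice, the groups did not overlap, and mice 496 and 520 had the lowest levels. The log2 fold change was −0.56 ± 0.12 (adjusted p = 0.00161), or 0.679 of the level with LPS alone.

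Prkag2 was at 4.36, 3.95, 6.81, 3.29 and 3.18 CPM with LPS and at 7.77, 5.5, 8.81, 7.84 and 11.6 CPM with piericidin A before LPS. It rose in 5 of 5 mice, though the groups overlapped, and it stayed below every resting WT library. The log2 fold change was 0.93 ± 0.25 (adjusted p = 0.00938), or 1.9-fold. Without mouse 496 it was 0.86 (adjusted p = 0.0556) and without mouse 520, in which it rose most, 0.69 (adjusted p = 0.118). Fitting the libraries of these groups alone gave 0.97 for Prkag2 (adjusted p = 0.0513) and −0.53 for Prkaa1 (adjusted p = 0.058).

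The summed granulocyte marker level was also higher with piericidin A in these libraries. All 8 markers were detected in both groups, the sum was 45.2 to 1010 CPM (median 69.8) with LPS and 94 to 2650 CPM (median 158) with LPS and piericidin A, and it was higher with piericidin A in each WT mouse. Without mice 496 and 503 the change of Prkaa1 was −0.44 (adjusted p = 0.0421) and that of Prkag2 0.86 (adjusted p = 0.0331). The dendritic cell marker sum was 11 to 33.6 CPM (median 14) with LPS and 11.4 to 60 CPM (median 18.7) with both agents, and the stromal sum 5.35 to 74.9 (median 7.8) and 7.18 to 114 CPM (median 9.61). The part of these markers in the changes of Prkaa1 and Prkag2 was not tested.

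With the mouse as a block, Slc6a8 joined these calls, so that 3 of the 9 genes passed against 34.5% of all genes. It was at 253, 210, 261, 228 and 174 CPM with both agents, above the LPS value of the same mouse in 5 of 5 mice, and rose by 0.41 on the log2 scale (adjusted p = 8.71e-05). The same fit without mice 496 and 503 gave 0.39 (adjusted p = 0.0018). Without the block the adjusted p for Slc6a8 was 0.147. Ckb, at 148, 122, 221, 118 and 121 CPM, was higher in 5 of 5 mice but did not pass either fit (log2 difference 0.28 ± 0.17, adjusted p = 0.256, and 0.0798 with the block).

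Ak4 showed no common direction under LPS and piericidin A. Its 22.4, 16.9, 13.3, 18.3 and 12.2 CPM lay above the LPS value in 3 WT mice and below it in mice 496 and 520, which had the highest values with LPS alone (log2 difference −0.44 ± 0.43, adjusted p = 0.514).

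**Figure D3:**
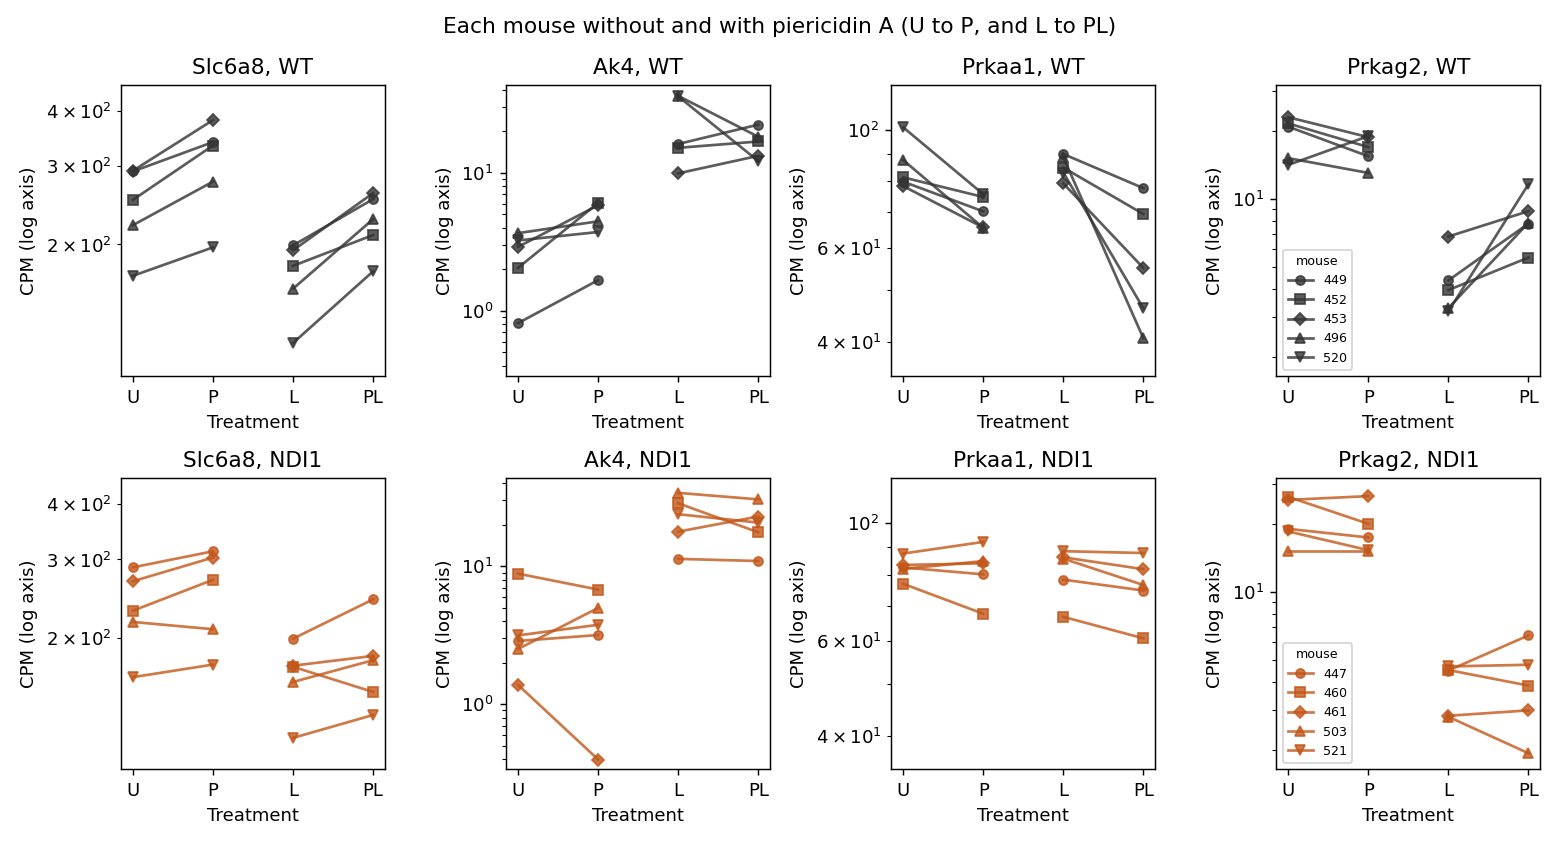
Levels of Slc6a8, Ak4, Prkaa1 and Prkag2 in CPM (log axes) in each mouse, with a line from U to P and a line from L to PL, WT above and NDI1 below. In WT, Prkaa1 falls along all 5 L to PL lines, to 40.7 CPM in mouse 496, while Prkag2 rises along all 5, to 11.6 CPM in mouse 520.

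In LPS-treated NDI1 BMDMs, piericidin A gave no call among the 9 genes, with 0% of all genes called by edgeR, 127 genes at an unadjusted p under 0.05 (none of the 9) and no gene called by DESeq2 or in the blocked fit. Prkaa1 was at 78.3, 66.7, 86.2, 85.7 and 88.5 CPM with LPS and at 74.7, 60.8, 81.9, 76.5 and 87.8 CPM with both agents. It was lower in 5 of 5 mice here too, but by a log2 difference of −0.09 (95% confidence interval −0.32 to 0.15). Prkag2 was at 6.43, 3.86, 3, 1.94 and 4.77 CPM with both agents, up in 3 mice and down in the others (log2 difference 0.05, −0.46 to 0.56).

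Whether WT and NDI1 BMDMs responded differently to piericidin A under LPS was tested directly. It called 0.979% of all genes and none of the 9, although Prkaa1 (0.47 ± 0.17, adjusted p = 0.18) and Prkag2 (−0.87 ± 0.36, adjusted p = 0.256) had unadjusted p-values under 0.05. With the mouse as a block it called Prkaa1 (0.48 ± 0.14, adjusted p = 0.0298), against 9.51% of all genes, and left Slc6a8 (−0.30, adjusted p = 0.0629) and Prkag2 (−0.90, adjusted p = 0.0852) above the threshold. The blocked value of Prkaa1 without mice 496 and 503 was 0.38 (adjusted p = 0.184).

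Piericidin A also changed the LPS effect itself on Prkag2 in WT, the only one of the 9 genes that passed this interaction, against 4.75% of all genes. The fall with LPS was smaller by 1.11 ± 0.33 on the log2 scale in the presence of piericidin A (adjusted p = 0.0411, and 0.00546 with the block, which called 17.4% of all genes and the same 1 of the 9). Without the block the adjusted p was 0.144, 0.0745, 0.186 and 0.161 without mice 449, 452, 496 and 520, with values of 1.07, 1.15, 1.04 and 1.01, 0.114 without both 496 and 503 (1.04), and 0.0713 with no filter on low counts (1.11). For Prkaa1 the interaction was −0.27 ± 0.17 (adjusted p = 0.414) and for Ak4 −1.22 ± 0.64 (adjusted p = 0.316).

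Set directly against WT, NDI1 BMDMs differed in no gene of the group without piericidin A. Untreated, 0% of all genes were called by edgeR, 39 genes and none of the 9 had an unadjusted p under 0.05, and DESeq2 called none. With LPS 0% were called again, with 141 genes and none of the 9 at an unadjusted p under 0.05 and none by DESeq2. The intervals of the untreated difference were −0.37 to 0.28 for Ckb, −0.45 to 0.30 for Slc6a8 and −0.29 to 0.18 for Prkaa1 on the log2 scale. With piericidin A alone, 7.8% of all genes and none of the 9 were called. Prkaa1 differed by 0.22 ± 0.12 (adjusted p = 0.293) and Ckb by −0.31 ± 0.17 (adjusted p = 0.268).

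With LPS and piericidin A, 12% of all genes and 2 of the 9 differed between the genotypes. Prkaa1 was higher in NDI1 BMDMs by 0.40 ± 0.12 (adjusted p = 0.0269), and Prkag2 was lower by a log2 difference of −1.03 ± 0.25 (adjusted p = 0.00545). The WT and NDI1 values of both genes overlapped. The call of Prkaa1 was lost when mouse 453, 461, 496, 503, 520 or 521 was left out (0.38, 0.37, 0.29, 0.40, 0.33 and 0.34, adjusted p = 0.0589, 0.0841, 0.139, 0.0594, 0.11 and 0.0882), and without both 496 and 503 (0.30, adjusted p = 0.204). That of Prkag2 held without any single mouse and was −0.89 (adjusted p = 0.0354) without 496 and 503. The granulocyte marker sum was 94 to 2650 CPM (median 158) in these WT libraries and 46.1 to 816 CPM (median 117) in the NDI1 libraries. In a fit of these groups alone neither gene passed (adjusted p = 0.22 for Prkaa1 and 0.0738 for Prkag2).

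The share of each family that a gene took was then computed per kb of mRNA, as a description with no test. Prkag2 was 30.5% ± 4.13 (SD, n = 5) of the AMPK gamma subunit transcripts in resting WT BMDMs, 12.7% ± 4.26 with LPS and 23% ± 6.1 with LPS and piericidin A, and in NDI1 BMDMs 33.2% ± 5.7, 10.8% ± 2.01 and 10.6% ± 4.5. The rest was almost wholly Prkag1. Prkaa1 made up at least 98% of the alpha subunit transcripts in each of the 40 libraries. Slc25a5 was 66.9% ± 4.34 of the ADP/ATP carrier transcripts at rest and 70% ± 3.49 with LPS, with nearly all the rest Slc25a4.

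**Figure D4:**
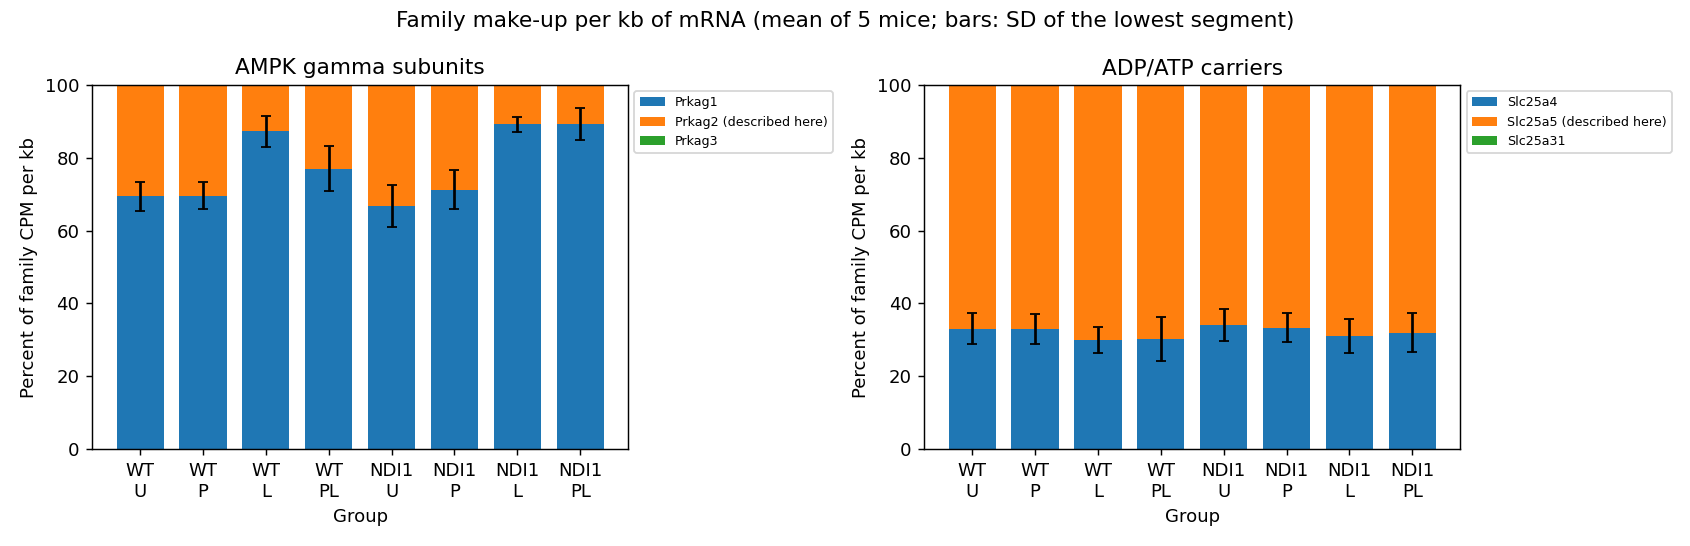
Percent of the summed CPM per kb of mRNA taken by each AMPK gamma subunit and by each ADP/ATP carrier, by group, as means over 5 mice, with the SD of the lowest segment. The Prkag2 segment takes 30.5% in resting WT BMDMs, 12.7% with LPS, and 23% (WT) against 10.6% (NDI1) with LPS and piericidin A.

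Other genes of the same pathways were read from a list of 57, of which 44 were tested. LPS moved 23 of them in WT (10 higher, 13 lower), or 52.3%, and 20 in NDI1 (8 higher, 12 lower), or 45.5%, both below the shares for all genes given above. The largest rise was that of Nt5c3, a pyrimidine 5′-nucleotidase (26.3 ± 4.47 CPM in resting WT BMDMs and 473 ± 82.4 CPM with LPS, log2 fold change 4.17, adjusted p = 9.26e-19). Flcn, the folliculin partner of FNIP proteins, fell by 2.61 on the log2 scale (adjusted p = 5.38e-15), from 83.1 to 13.5 CPM. Among the AMPK subunits outside the 9 genes, 2 of 4 fell and none rose in WT: Prkag1 by 0.52 (adjusted p = 9.56e-05) and Prkab2 by 0.71 (adjusted p = 0.00354).

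Piericidin A alone moved 9 of the 44 genes in WT (7 higher, 2 lower), or 20.5% against 14.8% of all genes, and piericidin A under LPS 5 (3 higher, 2 lower), or 11.4% against 16.7%. With the block these were 19 and 13 of the 44, against 34.2% and 34.5% of all genes. Among the AMPK partners, Camkk2, a kinase that activates AMPK in response to calcium, fell in both settings (log2 fold change −0.73, adjusted p = 0.000431, and −0.61, adjusted p = 0.00267). Fnip2, which binds folliculin and AMPK, rose in both (1.01, adjusted p = 0.00122, and 0.99, adjusted p = 0.0015). Prkab1, the beta-1 subunit, fell under LPS (−0.33, adjusted p = 0.0139), from 28.8 to 23 CPM, and Cab39, a scaffold of the LKB1 complex, rose without LPS (0.31, adjusted p = 0.00752). In NDI1 BMDMs none of the 44 was called for piericidin A with or without LPS, as was so for all genes tested.

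Among the nucleotide enzymes and carriers, the genes that piericidin A raised without LPS included Aprt (0.54, adjusted p = 0.0234), which salvages adenine, the mitochondrial nucleoside diphosphate kinase Nme4 (0.40, adjusted p = 0.0441), the phosphate carrier Slc25a3 (0.24, adjusted p = 0.0124) and the outer membrane channel Vdac2 (0.39, adjusted p = 0.025). It lowered the AMP deaminase Ampd2 (−0.46, adjusted p = 0.00145). Under LPS it raised Adssl1 of the purine nucleotide cycle (0.49, adjusted p = 0.00688) and Entpd1 (CD39), which hydrolyses extracellular ATP and ADP (0.42, adjusted p = 0.043). Gatm, the first enzyme of creatine synthesis, was not called in any of the WT effects without the block (0.23, adjusted p = 0.159 for LPS, and 0.0103 with the block). With LPS and piericidin A, 7 of the 44 differed between NDI1 and WT (15.9% against 12% of all genes), among them Fnip2 (−1.01, adjusted p = 0.0018) and Camkk2 (0.54, adjusted p = 0.00965). The difference between the genotypes in the piericidin A effect called none of the 44, and with the block 6 without LPS and 4 under LPS (against 8.96% and 9.51% of all genes), Camkk2 in both (adjusted p = 0.00878 and 0.03).

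The genes whose log2 level followed each of the 9 most closely over the 40 libraries were found by Pearson's r, given as a description, since the libraries share mice and the LPS contrast. For Prkag2 these were Cdc25b (0.97), Nbr1 (0.97) and Tef (0.97), and for Ak4 Tagln2 (0.93), Smpdl3b (0.93) and Cd14 (0.93). For Slc6a8 they were Ttyh2 (0.91), Gpr137b (0.89) and Plcb2 (0.89), and for Slc25a5 Sept5 (0.86), H2-Aa (0.86) and Capzb (0.85). Prkaa1 was closest to Zhx1 (0.84), Tm9sf2 (0.83) and Zfp943 (0.82), and Ak3 to Entpd5 (0.84), Gpr89 (0.82) and Arfgef3 (0.81). The closest were weaker for Ckb (Trem2, Bphl and Uckl1, 0.78 to 0.71), Ak1 (Atp6v0d2, Idua and Plcb2, 0.78 to 0.76) and Gamt (Akr1b10, Lman2 and Hfe, 0.66 to 0.62).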

How the data were processed

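RNA-seq of BMDMs from 10 mice (5 per genotype, 4 treatments each) was taken from one table of counts. Per the labels and the study's methods, the authors made these deposited counts per gene from polyA libraries with bcl2fastq, Trimmomatic, STAR (mm10) and HTSeq over exons. The study's reporting summary gives a version for Trimmomatic. Versions of the other tools, annotation release and strand setting were not given in the sources used here. A per-sample column of undetermined reads (1) was not used. Groups came from the sample titles, whose numbers were read as mice.

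All 40 libraries were fitted with 8 group means by edgeR 4.0.16 (quasi-likelihood, TMM, filterByExpr) in R 4.3.3, with Benjamini-Hochberg adjustment over 11853 genes. DESeq2 1.42.0 and the other alternatives are given in the closing section. Confidence intervals were computed from the SE by a normal approximation, so they are somewhat narrower than the quasi-likelihood test implies. Log2 CPM used a prior count of 2. Same-numbered libraries of a genotype deviated together (mean r = 0.453 over 60 pairs, lowest 0.0995, against −0.107 over 240 pairs of other numbers), so the number, read as the mouse, was used as a block in an alternative fit. Nothing else states how the cultures were kept apart, so p-values measure the spread between these samples. Promoters came from RefSeq and mRNA lengths from GENCODE. Named genes were the 9 genes, called genes of the pathway lists (1 of the listed genes is counted but not reported here) and the 3 closest genes of each by r. The 9 genes and the lists were chosen with earlier results of these data known. The NDI1 transcript was not analysed here.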

Additional observations from a re-analysis of the deposited data

Results flagged for a closer look

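In 4 of 72 sets of 5 mice (9 genes in 8 groups), 1 mouse lay farther from the others than Dixon's critical ratio of 0.71 allows, where chance gives about 1 in 20. Ckb was 158 CPM in untreated NDI1 mouse 461, against 92.5 to 107 CPM in the other 4. Ak4 was 8.83 CPM in untreated NDI1 mouse 460, against 1.38 to 3.15 CPM. Slc25a5 was 217 CPM in LPS-treated WT mouse 496 and 176 CPM in untreated NDI1 mouse 503, the mice with the high granulocyte marker sums.

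With the mouse as a block, the effect of piericidin A on Prkaa1 under LPS differed between the genotypes by 0.48 on the log2 scale (edgeR, adjusted p = 0.0298), with the level lower in 5 of 5 WT mice and, by less, in 5 of 5 NDI1 mice. It was the 1 of 18 alternatives that called this difference for Prkaa1: the adjusted p was 0.18 without the block, and 0.184 with the block and without mice 496 and 503.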

How the results depend on the processing

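Over all alternatives 1853 values of the 9 genes were recomputed. The call stayed in 1813, of which 106 were uncalled values that changed sign, 25 calls were lost, 15 were gained and 0 called values reversed. Leaving out mice 496 and 503 was chosen after seeing the data. The cause of the differences below was not tested.

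Of the 9 genes, LPS in NDI1 called 2 with at least 10 counts in every library, which removes low genes, in place of 4. Piericidin A under LPS in WT called 0 in place of 2 when only the libraries compared were fitted. NDI1 against WT with LPS and piericidin A called 0 of 9 in that fit and 1 without mice 496 and 503, in place of 2. The interaction of LPS with piericidin A in WT called 0 in place of 1 with no filter and without mice 496 and 503. Leaving out single mice gave 2 to 4 for LPS in NDI1, 1 to 2 for piericidin A under LPS in WT, 1 to 2 for NDI1 against WT with LPS and piericidin A, and 0 to 1 for that interaction.

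With the mouse as a replicate block, pairing the libraries of a mouse, 4 of the 9 genes were called in place of 0 for piericidin A alone in WT (2 without mice 496 and 503) and 1 in place of 0 for the difference between genotypes under LPS. Over all genes the block gave 4049 in place of 1759 for piericidin A in WT, 4090 in place of 1983 under LPS, 1062 in place of 150 and 1127 in place of 116 for the differences between genotypes without and with LPS, and 2066 in place of 563 for that interaction. With the block and without mice 496 and 503 these were 2701, 395, 291 and 973, in that order and leaving aside piericidin A under LPS. No paired analysis was possible for NDI1 against WT because the labels share no number between the genotypes and do not give the litters.

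Over all genes, leaving out mice 496 and 503 gave 908 for piericidin A in WT, 956 under LPS, 457 in place of 924 for NDI1 against WT with piericidin A, 572 in place of 1421 with LPS and piericidin A, 72 and 18 for the differences between genotypes and 187 for that interaction. Fitting only the libraries compared gave 766 for piericidin A under LPS in WT, 447 and 379 for NDI1 against WT with piericidin A and with both agents, 41 for the difference under LPS and 351 for that interaction. DESeq2 gave 294 and 231 for the differences between genotypes, and no filter 72 for that under LPS. Leaving out single mice gave 795 (without 496) to 1568 for piericidin A in WT, 844 (without 520) to 2032 under LPS, 588 to 1119 and 742 to 1786 for NDI1 against WT with piericidin A and with both agents, 63 to 200 and 27 to 255 for the differences between genotypes (lowest without 520, highest without 452), and 163 (without 496) to 506 for that interaction.

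Depth limits Ak1, with 5 to 60 counts per library, Ak4, with 6 to 264, and Gamt, with 30 to 120. It also limits Prkag2 under LPS. Prkag2 had 21 to 61 counts in WT libraries with LPS and 43 to 87 with LPS and piericidin A. In NDI1 libraries with both agents it had 13 to 58.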
